A study of Drosophila melanogaster with 24 samples.

Results

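The step from 18 h to 24 h after puparium formation (APF) was examined in pupal wings of Drosophila melanogaster, with 4 arrays of 24 h wings (A, B, D and E) set against 4 arrays of 18 h wings (A, B, C and D). These 8 arrays, chosen by their sample titles, belong to a series of 24 arrays that follows wing metamorphosis from the end of larval life (L3, wandering larvae) to 36 h APF, with stages at 2, 6, 18 and 24 h between. All flies were of the w1118 stock, a white-eyed laboratory line without a transgene, so stage was the only stated difference between the groups. Each array held labelled RNA of 10 dissected wings from an independently obtained sample, and wings of both stages were dissected without notum, the part of the disc that forms the back of the thorax. A stage field of the labels disagreed with the titles for 5 of the 8 arrays, and the titles and the sample descriptions, which give the same stage, were used. The replicate letters of the titles were taken as names of the samples, and whether they also pair them could not be decided.

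At the start of pupal life a pulse of the steroid hormone ecdysone makes the larval wing disc evert, extend and fold into a bilayer. Wing cells then pass through a last cell cycle, which most are in or have left at 18 h APF, and nearly all rest in G1 at 24 h APF. In the same hours the epithelium begins to pack into hexagons, and wing hairs and cuticle follow later. The comparison therefore asks which transcripts differ between wings around their last divisions and wings that have left the cell cycle. RNA of whole wings was measured, so fewer cells of a type and less RNA per cell cannot be told apart.

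Of 15473 transcripts, 1964 differed between 24 h and 18 h APF at an adjusted p under 0.05 (limma, Benjamini-Hochberg over all transcripts), which is 12.7%. Levels are log2 values of the deposited intensities, differences are 24 h minus 18 h on that scale, and the fit gave each stage 1 mean and all 23 unpooled arrays a shared spread per transcript. Transcripts that rose numbered 1027 (6.64%) and those that fell 937 (6.06%). The changes were mostly moderate, with a median of 1.77-fold for the rises and 1.85-fold for the falls. Changes over 2-fold were made by 410 rising (2.65%) and 404 falling transcripts (2.61%), changes over 4-fold by 89 (0.575%) and 105 (0.679%), and changes over 8-fold by 19 (0.123%) and 16 (0.103%). Without a model, the arrays of the stages did not overlap for 2339 transcripts (15.1%). Every 24 h array lay above every 18 h array for 1326 (8.57%) and below for 1013 (6.55%), and 858 of the rises and 757 of the falls were among these.

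The interval of an uncalled transcript limits its own difference in measured level, at 95% for that transcript and not for all of them together. Its width rests on the spread shared by all stages. For 10995 of the 13509 transcripts that did not pass, the 95% interval of the difference lay inside 2-fold in either direction, and for 5745 it lay inside 1.5-fold. The median difference of all transcripts was 0.03, which the shared normalization of the arrays holds near 0. Calls were rare among dim transcripts, whose differences are compressed, so a narrow interval there does not bound the change in RNA. Dim transcripts are part of the counts of intervals above. With the transcripts in 4 equal bins by mean level, 100 of 3869 passed in the dimmest bin (2.58%), 470 of 3868 (12.2%) in the next, 820 of 3868 (21.2%) in the one above it and 574 of 3868 (14.8%) in the brightest.

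Among the steps between neighbouring stages, which span unequal times, the one from 18 h to 24 h had the fewest calls. In the same fit 3312 transcripts (21.4%) differed between 2 h APF and L3, 5471 (35.4%) between 6 h and 2 h, 6270 (40.5%) between 18 h and 6 h, and 7744 (50%) between 36 h and 24 h, although neighbouring steps share the arrays of a stage. L3, 2 h and 6 h samples contained presumptive notum, so the step from 6 h to 18 h also carries a change of dissected tissue, which the step from 18 h to 24 h does not. Spread differed between the stages, with a median SD per transcript of 0.248 at 18 h and 0.286 at 24 h APF, between 0.151 at L3 and 0.277 at 36 h for the others.

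An array of each stage stood apart from its own stage, and both bear on every count above. The library 18 h C correlated at 0.980 with 24 h B and at only 0.971 to 0.977 with the other 18 h arrays, while 24 h B correlated at 0.962 to 0.976 with the other 24 h arrays. Both were hybridised on 1 slide of 4 arrays, together with an array of L3 and an array of 36 h APF. In 18 h C 1774 transcripts departed by over 2-fold from the mean of 18 h A, B and D, and in 24 h B 1813 from the mean of 24 h A, D and E. The remaining 18 h arrays had 134 to 408 such transcripts, and the remaining 24 h arrays 225 to 1335, the highest in 24 h D.

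The shift was shared. Over all transcripts, which do not count as replicates, the deviations of 18 h C and 24 h B from their stages correlated at 0.776. Over 2-fold in both were 1095 transcripts, or 61.7% of those in 18 h C and 60.4% of those in 24 h B, and 1092 of them moved the same way in both arrays, 986 above their stage and 106 below. These transcripts were picked by the deviations themselves, so their levels are a description. The 986 had a median level of 8.74 in 18 h C against 6.84 to 7.18 in the other 18 h arrays, and 8.85 in 24 h B against 6.73 to 7.05 in the other 24 h arrays. They were also high at 36 h APF, with medians of 9.08, 7.94 and 9.12, lower at L3 (7.04 to 7.32) and 2 h (6.66 to 6.96), and between at 6 h (7.07 to 8.02), where 6 h B lay above the lowest 36 h array. The L3 array of the same slide had 7.32, close to the other L3 arrays, and 4 of its transcripts lay over 2-fold from its stage. The 36 h array of the slide had 1371 such transcripts, where the other 36 h arrays had 1598 and 1109, and its deviations correlated at 0.206 with those of 18 h C and at 0.179 with those of 24 h B. None of the 1095 carries a gene name. Of them 25 (2.28%, all transcripts 12.7%) were called between 24 h and 18 h APF, a low share that the choice fixes, since it takes transcripts with a wide spread in both stages. The part of this shift in single results was not tested, and counts are given with and without both arrays.

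**Figure D1:**
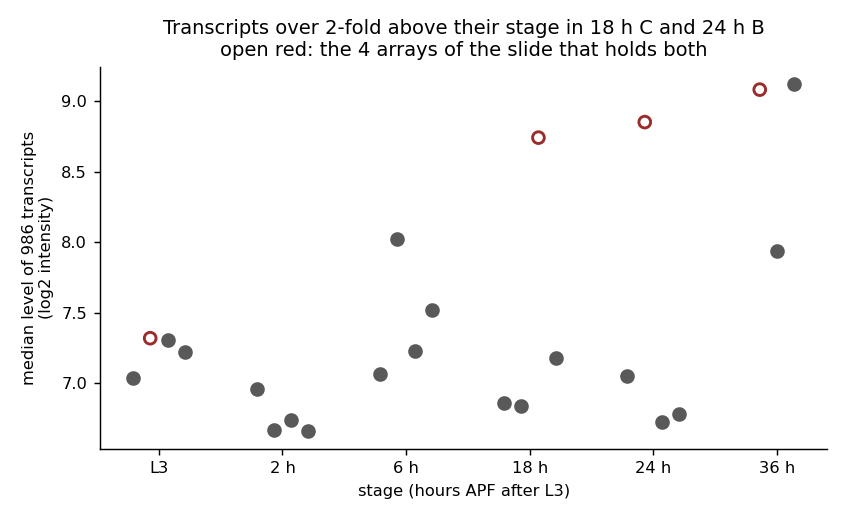
Median level (log2 intensity, vertical axis) of the 986 transcripts that lay over 2-fold above their stage in both 18 h C and 24 h B, for each of 23 arrays by stage (horizontal axis). The 4 open red circles are the arrays of the slide that holds both, of which 18 h C (8.74) and 24 h B (8.85) lie above the rest of their stages, whereas the L3 array (7.32) lies beside its own.

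Stage nevertheless separated the 8 arrays. In a principal component analysis of all transcripts over these arrays, the first component carried 39.4% of the variance and set 18 h C (44.8) and 24 h B (71.4) against the other 6 arrays (-33.2 to 2.87). The second carried 32.6%, and all 18 h arrays had negative scores on it (-44.1 to -20.1) and all 24 h arrays positive scores (9.93 to 49.7). The arrays were also placed on a line from the mean of the 18 h arrays (0) to that of the 24 h arrays (1). Both means left out 18 h C, 24 h B and the array being placed. On this line 18 h A lay at 0.08, B at 0.19, C at 0.18 and D at 0.06. On the same scale 24 h A lay at 0.76, B at 0.92, D at 0.88 and E at 0.73. Both arrays that stand apart thus lay near their own stage along this line.

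**Figure D2:**
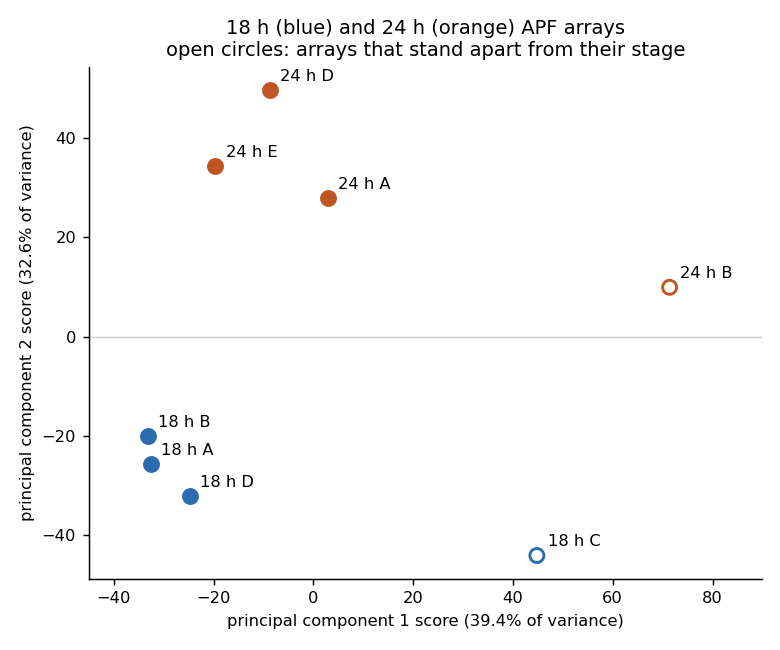
Scores of the 8 arrays on the first 2 principal components of all transcripts (horizontal axis 39.4%, vertical axis 32.6% of the variance), 18 h in blue and 24 h in orange. The open circles are 18 h C and 24 h B, which lie to the right of the other 6 arrays, and the vertical axis separates the stages without overlap.

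Along the course from L3 (0) to 36 h APF (1), the order was less clean. The 18 h arrays A, B and D lay at 0.24, 0.25 and 0.25, and 18 h C at 0.40. The 24 h arrays A, B, D and E lay at 0.42, 0.55, 0.38 and 0.36. Without 18 h C and 24 h B the stages did not overlap on this scale, and with them 18 h C lay above both 24 h D and 24 h E.

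Leaving both arrays out kept most of the calls, but the falls then outnumbered the rises. In the fit without them 1654 transcripts were called (10.7%), 796 higher (5.14%) and 858 lower (5.55%). The rises kept 739 of their members (72%) and the falls 760 (81.1%), 465 calls were lost, 155 were gained, and none changed direction. The 2 arrays left out of the fit could then be read on their own, although they had been normalized together with the others. The level in 24 h B exceeded that in 18 h C for 770 of the 796 rises (96.7%), where 62.3% of all transcripts did, and was below it for 807 of the 858 falls (94.1%). The median difference between these 2 arrays was 0.86 for the rises and fell by 0.77 for the falls, against 0.99 and a fall of 1.0 between the means of the other arrays.

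A second slide held both stages, with 18 h A and 24 h A side by side. With these 2 arrays left out of the fit, 1353 transcripts were called, and 1308 of them (96.7%) moved from 18 h A to 24 h A in the called direction, against 65.3% of all transcripts moving as in the fit. For the slide of 18 h C and 24 h B the same count was 1577 of 1654 (95.3%, all transcripts 67.1%), which only joins the rises and falls given above. Both differences are taken within a slide and use arrays left out of the fit that made the calls. That fit was the same in kind, and all arrays had been normalized together, so the arrays left out are not fully separate.

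The direction of the step was set against the rest of the time course with comparisons that share none of the 8 arrays. Between 36 h APF and L3, 60.8% of all transcripts differed, 30% higher and 30.8% lower at 36 h. Of the 1027 rises, 70.9% were higher at 36 h than at L3 and 8.08% were lower. Of the 937 falls, 75.7% were lower at 36 h than at L3 and 12.8% were higher. Between 36 h and 6 h APF, 56.4% of the rises were higher and 69.8% of the falls lower (all transcripts 27% and 27.9%, and 55% in either direction). Between 2 h APF and L3, 32.8% of the rises were higher and 47.9% of the falls lower (all transcripts 10.9% and 10.5%). Between 6 h and 2 h the rises were divided, 31.7% higher and 20.9% lower, whereas 46.1% of the falls were lower and 19.4% higher (all transcripts 15% higher and 20.4% lower). These comparisons share the spread estimate of each transcript with the step itself, and transcripts with little spread pass in all of them more often. The comparisons of 36 h with L3 and with 6 h also carry a change of dissected tissue. The L3, 2 h and 6 h samples contained presumptive notum and the 36 h samples did not, and the part of this in the shares was not tested.

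The median over the rises was 10.07 at L3, 10.32 at 2 h, 10.82 at 6 h, 10.12 at 18 h, 11.17 at 24 h and 11.75 at 36 h APF. That of the falls was 11.95, 11.51, 11.22, 11.77, 10.69 and 9.72 at the same stages. The values at 18 h and 24 h chose both sets, so only the other stages add to the step. The medians of all transcripts stayed between 9.35 and 9.50. Of the rises 464 (45.2%) had their highest stage mean at 36 h APF and 302 (29.4%) at 24 h, against 31.7% and 12.7% of all transcripts. Of the falls 607 (64.8%) were lowest at 36 h and 507 (54.1%) highest at L3, and 122 (13%) were lowest at 24 h, against 30.8%, 19.6% and 5.77% of all transcripts. A highest or lowest mean at 24 h is favoured by the choice of the sets, and the L3, 2 h and 6 h means come from samples with presumptive notum.

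**Figure D3:**
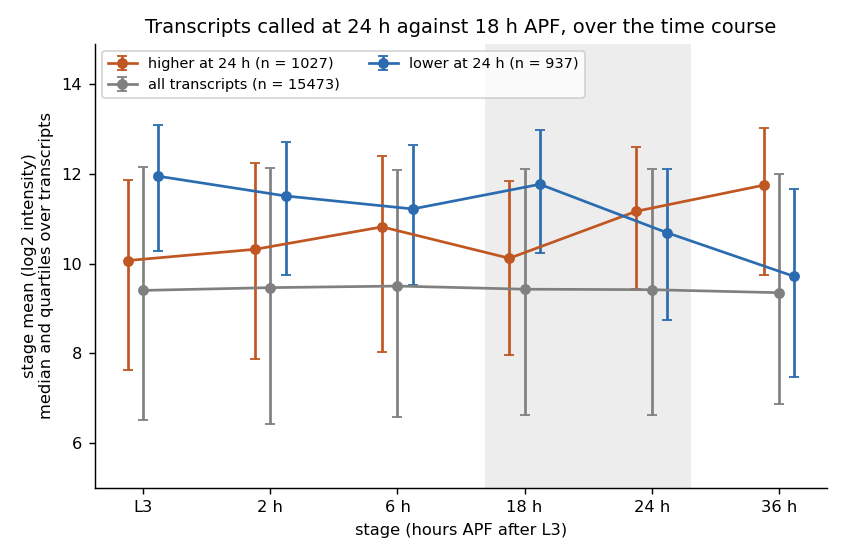
Stage means (log2 intensity, vertical axis) by stage (horizontal axis), as the median over transcripts with bars from the lower to the upper quartile, for the 1027 rises (orange), the 937 falls (blue) and all 15473 transcripts (grey). The grey band marks the step that chose the rises and falls, whose medians cross there, while those of all transcripts stay between 9.35 and 9.50.

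The transcripts of largest change carry FlyBase identifiers without a gene name in the tables used, and were chosen by their values at this step. The transcript FBtr0071579 had levels of 7.57, 7.39, 8.21 and 7.48 in 18 h A, B, C and D, and of 12.10, 12.24, 12.14 and 11.22 in 24 h A, B, D and E, a 19.2-fold difference. The transcript FBtr0086215 had 8.31, 8.23, 9.05 and 8.35 at 18 h and 12.90, 13.20, 12.23 and 12.37 at 24 h, an 18.2-fold difference. In both the groups lay far apart, and 18 h C was the highest 18 h array. The transcript FBtr0082339 had 10.14, 10.23, 9.85 and 9.78 at 18 h against 5.70, 5.96, 5.21 and 4.96 at 24 h, a measured difference of 23.3-fold. Its 24 h values lie within the range of the dimmest bin, and no background value was at hand to show that they stand above it. The transcript FBtr0084987 had 11.90, 12.02, 11.45 and 12.10 against 8.04, 9.60, 6.96 and 7.92, and was 13.3-fold lower. The array 24 h B was the highest 24 h array in both falls, and the groups again did not overlap. The course beyond the step differed among the 4. FBtr0071579 stood at 10.37 at L3, 7.61 at 6 h and 13.48 at 36 h APF, whereas FBtr0082339 stood at 5.31 at L3, 9.25 at 6 h and 7.14 at 36 h, and was thus highest at 6 h and 18 h.

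Gene names could be given to 44 transcripts, 17 of a single gene and 27 whose mRNA carries reading frames of 2 or more genes, so that their level belongs to the shared mRNA. A name depended on the annotation alone and not on any value. Of the 44, 10 passed the test (22.7%), 2 higher and 8 lower, against 12.7% of all transcripts. The named transcripts were mostly bright, with 16 and 22 of them in the 2 upper bins by mean level, where 21.2% and 14.8% of all transcripts passed. For 8 of the 10 the arrays of the stages did not overlap, and 7 of the 10 passed without 18 h C and 24 h B, where 82.2% of all calls did not overlap and 76.3% were kept.

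The named fall with the smallest p was that of NaPi-III, a transporter of inorganic phosphate. Its levels were 10.29, 10.11, 9.22 and 10.63 in 18 h A, B, C and D, and 8.28, 8.12, 9.02 and 8.66 in 24 h A, B, D and E. The array 18 h C was the lowest of its stage, but still above every 24 h array. NaPi-III fell by 1.54 (SE 0.22, 2.91-fold, adjusted p = 4.4e-05 from limma), and fell by 1.69 without 18 h C and 24 h B (adjusted p = 1.3e-06). Its stage mean had already dropped from 12.01 at L3 to 10.09 at 6 h, held at 10.06 at 18 h, and reached 7.65 at 36 h APF.

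The mRNA shared by Rad1, a part of the clamp that signals DNA damage at replication, and Sws1, a factor of homologous recombination, also fell. Levels were 9.94, 9.69, 8.76 and 9.88 at 18 h and 8.49, 8.43, 8.35 and 8.44 at 24 h. The 24 h arrays lay within a narrow band (SD 0.06), and 18 h C lay closest to it. The Rad1/Sws1 transcript fell by 1.14 (SE 0.21, 2.20-fold, adjusted p = 6.1e-04), and fell by 1.41 without 18 h C and 24 h B (adjusted p = 2.1e-05). Its mean went from 10.99 at L3 to 9.57 at both 6 h and 18 h and 6.36 at 36 h APF.

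Of a list of 25 genes of TOR signalling, growth and ribosome biogenesis only 4 could be named, of which 2 fell (all transcripts 6.06%) and 2 did not pass. The gene sle encodes a nucleolar protein needed for rRNA processing and nucleolar structure. Its levels were 12.56, 12.77, 12.78 and 13.02 at 18 h and 11.90, 11.49, 11.61 and 11.95 at 24 h, with no overlap. It fell by 1.04 (SE 0.16, 2.06-fold, adjusted p = 1.4e-04), and its adjusted p without 18 h C and 24 h B was 0.0022. Its mean at 18 h (12.78) lay above that at 6 h (11.08), by 1.70 (adjusted p = 3.2e-08 from limma). The 6 h samples contained presumptive notum and the 18 h samples did not, so stage and tissue cannot be told apart in that difference. At 36 h APF the mean was lower again at 9.96.

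Wdr24 and mio are both subunits of GATOR2, the complex that relieves the inhibition of TORC1 by amino acid shortage. The Wdr24 levels were 12.83, 12.81, 12.37 and 12.73 at 18 h and 12.11, 11.99, 12.01 and 12.58 at 24 h, where 24 h E lay above 18 h C. Wdr24 fell by 0.51 (SE 0.14, 1.43-fold, adjusted p = 0.020). Its adjusted p was 0.023 without 18 h C and 24 h B together, but passed 0.05 when 1 of 6 arrays was left out, at 0.066 without 18 h A, 0.060 without 18 h B, 0.054 without 18 h D, 0.052 without 24 h A, 0.069 without 24 h B and 0.064 without 24 h D. With slide as a fixed block it was 0.10. For mio the levels were 10.28, 10.25, 9.29 and 10.00 at 18 h and 9.55, 9.09, 9.83 and 9.89 at 24 h. Its groups overlapped through 18 h C, and its difference of -0.37 (95% interval -0.79 to 0.06) did not pass (adjusted p = 0.30). It passed in 1 alternative only, the fit without 18 h C (-0.59, adjusted p = 0.037). Without 18 h C and 24 h B together it did not pass (-0.42, adjusted p = 0.13). Whether the differences of Wdr24 and mio differ from each other was not tested.

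Uba1, the enzyme that activates ubiquitin, was the last of this list. Its levels were 14.15, 14.00, 13.88 and 14.32 at 18 h and 13.74, 13.41, 13.56 and 14.03 at 24 h, with 24 h E above both 18 h B and 18 h C. The difference of -0.40 (95% interval -0.74 to -0.06) did not pass over all transcripts (adjusted p = 0.12). It passed in 1 alternative only, the fit without 24 h E (-0.52, adjusted p = 0.044). Without 18 h C and 24 h B together it did not pass (-0.38, adjusted p = 0.22).

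The fat body list had 1 measured gene, Fatp1, whose product carries fatty acids into cells. Its levels were 11.83, 11.63, 11.19 and 11.77 at 18 h and 10.86, 10.79, 11.18 and 11.13 at 24 h, and the groups met at 18 h C and 24 h D without crossing. Fatp1 fell by 0.61 (SE 0.17, 1.53-fold, adjusted p = 0.022, and 0.019 without 18 h C and 24 h B). The adjusted p passed 0.05 without 18 h A (0.078), 18 h D (0.077), 24 h A (0.064) or 24 h B (0.072), and with slide as a fixed block (-0.55, adjusted p = 0.061). The fall ran against its later course, as the mean of 10.99 at 24 h was followed by 13.78 at 36 h APF.

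Of a list of 28 chromatin genes 4 could be named, and 1 of them passed the test (all transcripts 12.7%). HDAC3 encodes a histone deacetylase, and its levels were 13.57, 13.44, 13.31 and 13.45 at 18 h and 13.13, 13.02, 13.31 and 13.18 at 24 h. The lowest 18 h array and the highest 24 h array were level to 2 decimals. HDAC3 fell by 0.28 (SE 0.09, 1.22-fold, adjusted p = 0.047), and this call was the weakest of the 10. It was lost without 18 h C and 24 h B together (adjusted p = 0.10), and without any single one of 18 h A (0.15), 18 h B (0.088), 18 h D (0.098), 24 h A (0.10), 24 h B (0.15) and 24 h E (0.064), and with slide as a fixed block (0.15). The other members were kis, a chromatin remodeller of the CHD family, at -0.07 (95% interval -0.37 to 0.24), SuUR, a suppressor of replication in polytene chromosomes, at 0.14 (-0.20 to 0.48), and His4r, a histone H4 gene expressed outside S phase, at 0.34 (-0.21 to 0.88), none of which passed.

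LanA, the laminin alpha chain of the basement membrane, was the only single gene that rose. Its levels were 9.63, 9.64, 9.18 and 9.78 at 18 h and 10.70, 10.06, 9.74 and 11.42 at 24 h. Values at 24 h were widely spread (SD 0.75), 24 h D lay just below 18 h D, and the other 24 h arrays lay above all 18 h arrays. LanA rose by 0.92 (SE 0.26, 1.90-fold, adjusted p = 0.020, and 0.040 without 18 h C and 24 h B). Without 18 h C, 24 h A or 24 h E alone the adjusted p was 0.060, 0.061 and 0.063, and without 24 h E the difference was 0.61. In a fit of the 8 arrays alone the call was lost (adjusted p = 0.17). The mean of LanA was 13.0 at L3, 9.56 at 18 h, 10.48 at 24 h and 9.78 at 36 h APF, and the L3 samples contained presumptive notum. No other gene of the adhesion and extracellular matrix list, which has 28 members, could be named.

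**Figure D4:**
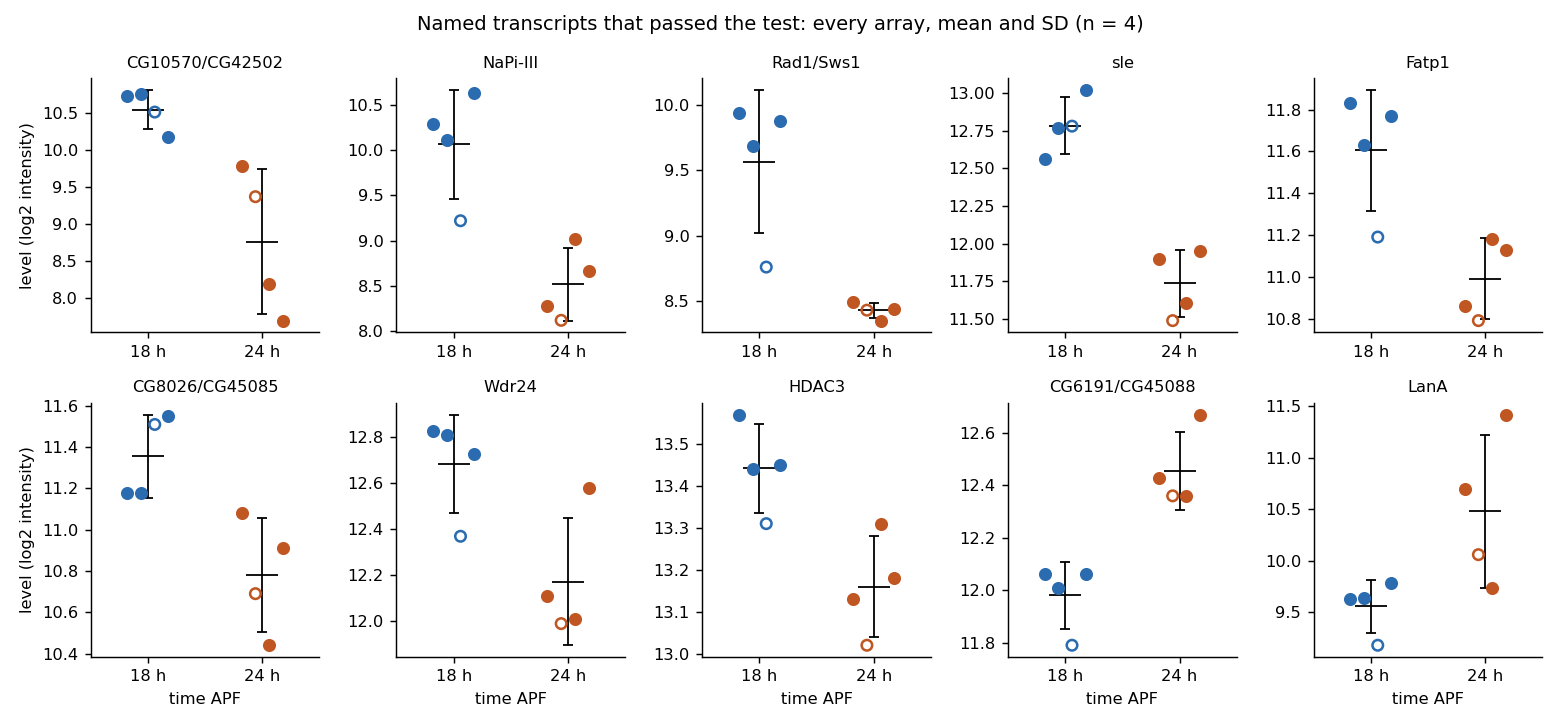
Level (log2 intensity, vertical axes, each panel on its own scale) of the 10 named transcripts that passed the test, in 4 arrays of 18 h (blue) and 4 of 24 h APF (orange), with the mean and SD in black. Open circles are 18 h C and 24 h B, and the groups overlap only for Wdr24 and LanA.

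Of the 27 transcripts shared by several genes, 4 passed (14.8%, all transcripts 12.7%). Beside Rad1/Sws1, the transcript of CG10570 and CG42502 had levels of 10.72, 10.76, 10.51 and 10.18 at 18 h and 9.79, 9.37, 8.19 and 7.70 at 24 h. The 24 h arrays were spread over a wide range (SD 0.98), all below the 18 h arrays. It fell by 1.78 (SE 0.38, 3.44-fold, adjusted p = 0.0029), and its mean of 8.76 at 24 h returned to 11.16 at 36 h APF. The transcript of CG8026 and CG45085 had 11.18, 11.18, 11.51 and 11.55 at 18 h and 11.08, 10.69, 10.44 and 10.91 at 24 h. It fell by 0.57 (SE 0.15, 1.49-fold, adjusted p = 0.010), with no overlap but a small gap between 18 h A and 24 h A, and did not pass without 18 h C and 24 h B (adjusted p = 0.079) or with slide as a fixed block (adjusted p = 0.091).

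The one shared transcript that rose was that of CG6191 and CG45088. It had 12.06, 12.01, 11.79 and 12.06 at 18 h and 12.43, 12.36, 12.36 and 12.67 at 24 h, and every 24 h array lay above every 18 h array. CG6191 rose by 0.47 (SE 0.13, 1.39-fold, adjusted p = 0.020). The adjusted p was 0.076 without 18 h C and 24 h B together, 0.061 without 18 h C and 0.065 without 24 h E.

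Within the slides that held both stages, all 10 of these transcripts moved in the called direction. From 18 h A to 24 h A the differences ranged from -2.01 for NaPi-III to 1.07 for LanA, and that of CG8026 was only -0.10. From 18 h C to 24 h B they ranged from -1.29 for sle to 0.88 for LanA. Rad1/Sws1 differed by -1.45 on the first slide and -0.33 on the second. These pairs are part of the calls and are no separate evidence for them.

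**Figure D5:**
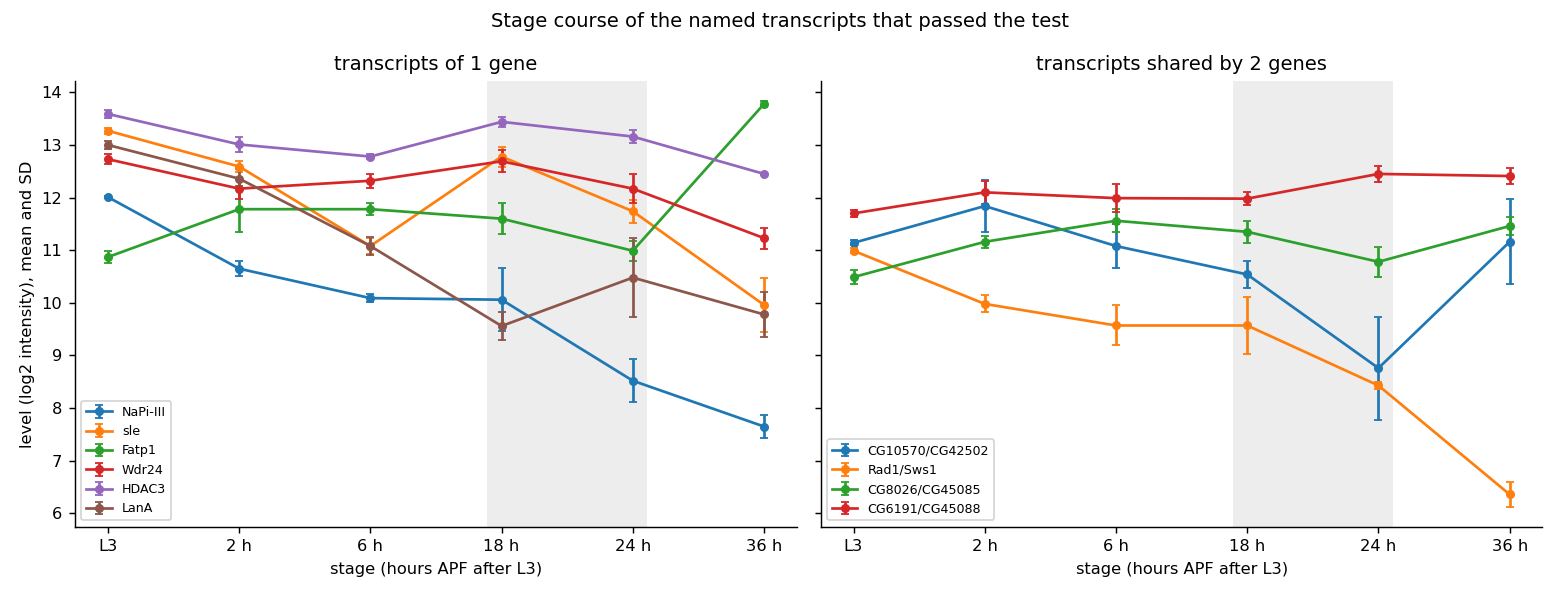
Stage means with SD (log2 intensity, vertical axis) over 6 stages (horizontal axis) of the 10 named transcripts that passed the test, with transcripts of 1 gene on the left and shared transcripts on the right. The grey band marks the step from 18 h to 24 h APF, after which NaPi-III, sle and Rad1/Sws1 went on to lower means at 36 h whereas Fatp1 and CG10570/CG42502 had higher means.

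The course after the step divided the 8 falls. From 24 h to 36 h APF, where 20.5% of all transcripts rose and 29.6% fell, a further fall passed the test for NaPi-III (-0.87, adjusted p = 0.0049), sle (-1.78, adjusted p = 7.2e-08), Rad1/Sws1 (-2.07, adjusted p = 2.1e-07), Wdr24 (-0.94, adjusted p = 3.9e-05) and HDAC3 (-0.72, adjusted p = 4.7e-06). A rise passed for Fatp1 (2.79, adjusted p = 2.5e-10), CG10570 (2.40, adjusted p = 6.9e-05) and CG8026 (0.68, adjusted p = 0.0012). Of the 2 rises, LanA fell by 0.70 from 24 h to 36 h (adjusted p = 0.042), and CG6191 differed by -0.04 (adjusted p = 0.83). This later step shares the 24 h arrays with the step from 18 h to 24 h.

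The 34 named transcripts that did not pass had narrow intervals in most cases. For 33 of them the 95% interval lay inside 2-fold and for 25 inside 1.5-fold. Genes of basic cell functions give examples. The difference was 0.10 (95% interval -0.16 to 0.36) for the mRNA of PIG-P and Tcs6, a step of GPI anchor synthesis and a tRNA-modifying factor. It was -0.07 (-0.28 to 0.13) for that of PIG-M, also of GPI anchor synthesis, and 0.03 (-0.23 to 0.30) for Tim10, a chaperone of mitochondrial import. It was -0.09 (-0.29 to 0.10) for Pbp49, a subunit of the complex that activates snRNA genes, and 0.11 (-0.09 to 0.31) for the mRNA of CG31917 and Tfb5, a subunit of TFIIH. The alpha chain of spectrin, alpha-Spec, the only named gene of the wing hair list, differed by 0.04 (-0.26 to 0.33), and rdx, an adaptor of Cul3 ubiquitin ligases in Hedgehog signalling, by 0.03 (-0.23 to 0.29).

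A few uncalled transcripts had a larger difference or spread. The mRNA of CG12016 and Dpm2, a subunit of dolichol-phosphate-mannose synthase, had 11.02, 11.32, 11.00 and 11.04 at 18 h and 10.60, 10.11, 10.77 and 10.89 at 24 h. Its groups did not overlap, but the difference of -0.50 (95% interval -0.96 to -0.04) missed the threshold over all transcripts (adjusted p = 0.16). The transcript of Tgs1, which makes the trimethylguanosine cap of snRNAs, and moi, a protein of telomere capping, differed by -0.21 (-0.45 to 0.02). The one interval wider than 2-fold was that of CG31178, at -0.24 (-1.03 to 0.55), with levels of 5.98, 5.44, 6.38 and 5.46 at 18 h and 4.89, 7.09, 5.04 and 5.28 at 24 h. The highest value of each stage was in 18 h C and in 24 h B, and without these 2 arrays its adjusted p was 0.26.

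Of the 16 lists of wing genes drawn up for this step, those of mitosis, S phase, the ecdysone response, cuticle, core promoter factors, haemocytes, trachea, muscle and heat shock had no member among the named transcripts. The genes that define the wing epithelium were likewise not named, so the labelled tissue could not be checked against its markers, and the change of the cell cycle between the stages was not read from these arrays. The neuron list had 1 named gene, fend, which acts in motor axon guidance of the embryo, with a difference of 0.02 (95% interval -0.49 to 0.52). No cell type outside the epithelium was therefore measured by more than 1 named marker, and its part in the changes was not tested.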

How the data were processed

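Arrays with 60-mer probes were labelled with Cy3 after 1 round of linear amplification, scanned, and quantile normalized by the authors. The deposited files hold 1 linear intensity per transcript, made with RMA, and a deposited log2 table of the series was used as an alternative. The sources used here do not give the RMA version, genome build or annotation release. Normalization forces like distributions, so a change in total RNA is not seen, and dim differences are compressed. No detection call or background value was in the files used, and precision is limited by the number of arrays. None of the 8 arrays was identical to another, and their log2 values ran from 4.07 to 15.88.

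Log2 intensities were fitted by lmFit and eBayes of limma 3.58.1 (R 4.3.3) to 23 arrays, with 1 mean per stage and no covariate. The array pooled from 36 h samples was left out and no transcript was filtered. The fit was tested on simulated data with the same spread in all stages and no slide effect, so the shift shared by 18 h C and 24 h B was not covered. Slides were taken from array numbers, 1 of which was incomplete and was read as the slide with a free position. Figures used matplotlib 3.10.9.

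Names came from a Release 6 RefSeq gene table, through synonyms that hold a transcript identifier, and no other transcript was named. The rule named every transcript paired with 1 gene and the 2 largest rises and falls, and the shared transcripts were added after the gene table was seen. The members and lists were chosen with earlier results of these data known. The replicate letters A, B and D occur in both stages. Deviations of same-letter samples from their stage means correlated at 0.08, -0.55 and -0.03. Those of 24 h B also correlated at -0.49 with 18 h A and -0.36 with 18 h D, and at 0.776 with 18 h C. The stage means include 18 h C and 24 h B, which stand apart, so these values cannot decide whether the letters pair the samples. Alternatives covered the samples in the fit, slide, position, replicate block, moderation, normalization, dim transcripts, an offset and thresholds.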

Additional observations from a re-analysis of the deposited data

Results flagged for a closer look

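In 102 groups of 4 arrays, the highest or lowest value was compared with the others of its stage by Dixon's ratio, which chance alone passes in about 1 in 20 groups, and 7 values passed. For whole arrays, 18 h C lay far from the other 18 h arrays in its position between L3 and 36 h APF (0.396, against 0.244 to 0.251) and in its number of transcripts over 2-fold from its stage (1774, against 134 to 408). Among single transcripts, 18 h C was far above its stage for FBtr0086215 (9.05, against 8.23 to 8.35), on the side of the 24 h arrays. For FBtr0071579 24 h E was far below its stage (11.22, against 12.10 to 12.24). The array 18 h B was highest for the mRNA of CG12016 and Dpm2 (11.32, against 11.00 to 11.04) and for Pbp49 (14.11, against 13.76 to 13.79). It was lowest for the mRNA of CG31917 and Tfb5 (13.41, against 13.67 to 13.72). None of these 3 transcripts passed the test between the stages.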

How the results depend on the processing

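The fit of all 23 arrays gave 1964 calls, 1027 higher and 937 lower. No transcript called both there and in an alternative run had opposite directions in the 2 fits. A fit of only the 8 arrays gave 1166 calls (595 higher, 571 lower), with 2 of the 17 single genes and 2 of the 27 shared transcripts, against 6 and 4. Fitting only the 6 arrays other than 18 h C and 24 h B gave 1162 (550 and 612), with 3 and 1, and leaving both out of the full fit gave 2 shared transcripts. Quantile normalization of the 8 arrays gave 1101 (540 and 561), with 2 and 2. With the replicate block, the letters of the titles in a fit of the 8 arrays, 405 transcripts were called (169 higher, 236 lower), with 1 single gene and 1 shared transcript. With slide as a fixed block 3 single genes were called, and the calls of HDAC3, Fatp1, Wdr24 and the shared CG8026 were lost. A 2-fold minimum left 814 calls (410 and 404), Bonferroni adjustment 388 (172 and 216) and a threshold of 0.01 left 1196 (604 and 592). Fewer samples, fewer degrees of freedom or stricter limits are part of these alternatives by construction. Fits of 18 h and 24 h alone also take their spread from these stages only. Their median SDs were 0.248 and 0.286, against 0.151 (L3) to 0.277 (36 h) at the others. What each of these adds to the lower counts was not tested.

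Leaving out single arrays gave 1439 to 2128 calls, the fewest without 18 h D and the most without 18 h C, with 740 to 1048 higher and 699 to 1112 lower. Single genes called ranged from 2 to 6 (2 without 24 h A, 3 without 18 h A, 18 h D or 24 h B) and shared transcripts from 3 to 4. Transcripts without overlap, 2339 in all arrays, numbered 2658 to 3522, the most without 18 h C, and 4352 without 18 h C and 24 h B, since fewer arrays overlap less. With dim transcripts left out, 24 h B lay at 1.15 in place of 0.92 on the line from 18 h to 24 h, and the cause was not tested. Stricter limits on p and fold apart, the call of NaPi-III was kept in each alternative, and that of Rad1/Sws1 in each but the one that leaves dim transcripts, itself among them, untested. That of sle was lost under the replicate block, and that of CG10570 there and in the fit of 6 arrays. The other 6 calls were lost in 6 to 15 alternatives each. The fit of 8 arrays kept the calls of NaPi-III, sle, Rad1/Sws1 and CG10570.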
